A study of Caenorhabditis elegans with 36 samples.

Results

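Small RNA of whole hermaphrodites of N2, the wild-type laboratory strain of the nematode Caenorhabditis elegans, was compared after 1 day of rotenone and after 1 day of either of its vehicles. The comparison uses 9 of the 36 libraries of the series, chosen by their labels: 3 of worms given rotenone (100 nM), 3 of worms given DMSO (0.1 %) and 3 of worms given H2O (0.1 %). The labels of these groups differ otherwise only in the sequencing lane, and no mutation or transgene is named. The labels enter 1 day as the age of the worms, while the series title counts its times from the treatment. The same 6 vehicle libraries were set against rotenone as 1 pool, in which each vehicle weighs the same, and as DMSO and H2O alone. The question is which miRNA levels differ with rotenone whichever vehicle is used.

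miRNAs are short RNAs cut from a hairpin precursor by Dicer and loaded into an Argonaute protein, which they guide to messenger RNAs through the bases of their seed. In C. elegans several of them form families that share a seed, such as the let-7 family, whose members time the transitions between larval stages and into the adult. Rotenone blocks complex I of the mitochondrial respiratory chain. Counts here are reads per hairpin, with the arms of a hairpin not separated, and levels are given as CPM, the count scaled to a common library size with TMM factors. Mature sequences were not used here, so hairpins are given by name.

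Total counts ran from 7360978 to 8088864 in the rotenone libraries, from 9634876 to 12924534 in the DMSO libraries and from 9040333 to 14779818 in the H2O libraries, so that 3 counts weigh 0.203 to 0.408 CPM. Of 250 hairpins 193 had enough counts to be tested. Markers of the tissues of a whole worm were present: over these 9 libraries mir-1 of muscle averaged 628 CPM, mir-60 of the intestine 1748 CPM, mir-228 of glia 26256 CPM and mir-124 of neurons 19.4 CPM. None of these 4 passed the test between rotenone and the vehicles, with log2 differences of 0.013 ± 0.084, -0.11 ± 0.081, 0.095 ± 0.09 and 0.018 ± 0.12. Whether the 3 libraries of a group stem from different worm cultures is not stated, and the spread behind each p-value may therefore be technical. Rotenone at 1 day was sequenced on lane 8, DMSO on lane 2 and H2O on lane 3, each group on a single lane, so treatment and lane cannot be told apart at this time. On the first principal component of the 9 libraries, which held 24.1% of the variance, the rotenone libraries lay between 0.629 and 3.18 and the vehicle libraries between -1.49 and -0.743. Rotenone replicate 3, at 0.629, lay nearest to the vehicles.

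After 1 day of rotenone 7 of the 8 tested let-7 family members, mir-72, mir-34 and mir-799 were higher than with the pooled vehicles. Lower were mir-244, mir-791, mir-8196a and mir-51. All of these but mir-48 and mir-793 of the let-7 family also passed against each vehicle alone. In a fit with lane as an additive term, described below, let-7, mir-799, mir-8196a and mir-51 passed. The other let-7 family members, mir-72, mir-34, mir-244 and mir-791 did not. The changes were small. The largest fold among those that passed against the pool was 1.42 for mir-799 and the lowest 0.682 for mir-791, and 0 of them changed more than 1.5-fold. Of those that passed against DMSO alone 0 did, and against H2O alone 1, with a log2 difference of 0.65 in size. In whole worms fewer cells that make a miRNA and less of it per cell cannot be told apart. Against both vehicles pooled 35 of the 193 hairpins passed the threshold of 0.05 (18.1%), 22 higher (11.4%) and 13 lower (6.74%), in the quasi-likelihood test of edgeR. P-values were adjusted by Benjamini-Hochberg over all 193 hairpins, and this test stands behind every adjusted p given here. With DESeq2 size factors in place of TMM the split was 19 higher and 17 lower, and with total counts 14 higher and 20 lower. The median log2 difference of all 193 was 0.029 with TMM, 0.0024 with size factors and -0.052 with total counts, so the direction of hairpins that changed by about this much depends on the scaling.

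Against DMSO alone 32 hairpins passed (16.6%), 20 higher (10.4%) and 12 lower (6.22%), and against H2O alone 23 (11.9%), 16 higher (8.29%) and 7 lower (3.63%). With total counts these splits were 12 higher and 22 lower against DMSO and 8 and 14 against H2O, and with size factors 15 and 13 against DMSO and 11 and 9 against H2O. Between DMSO and H2O themselves 0 of 193 passed in edgeR (0%), with 14 at an unadjusted p under 0.05, and 1 passed in DESeq2. The median size of the log2 difference between rotenone and the pooled vehicles was 0.27 for the 35 hairpins called, beside 0.060 between DMSO and H2O for the same hairpins. For 33 of the 35 the rotenone difference was the larger of these. The exceptions were mir-4813 (-0.20 for rotenone, 0.23 for DMSO minus H2O) and mir-54 (-0.16 and 0.18), which were singled out after their values were seen. Over all 193 hairpins these medians were 0.146 and 0.092, and the rotenone difference was the larger for 123. The 35 were called by that difference, so its size in them follows in part from the choice. The same is true of their signs: all 35 had the same sign against DMSO and against H2O. In 28 of them the 3 rotenone libraries all lay above or all below the 6 vehicle libraries. Among all 193 hairpins this held for 40 (20.7%), with rotenone above in 26 (13.5%) and below in 14 (7.25%). With total counts rotenone was above in 14 and below in 27, and with size factors in 18 and 17.

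Changes that held against the pool and against each vehicle alone numbered 19 (9.84%), 13 higher (6.74%) and 6 lower (3.11%). With total counts 7 higher and 11 lower held, and with size factors 9 and 6. The 13 were let-7, mir-84, mir-241, mir-794 and mir-795 of the let-7 family and mir-34, mir-72, mir-230, mir-240, mir-252, mir-357, mir-799 and mir-2209a. The 6 were mir-44, mir-45, mir-51, mir-244, mir-791 and mir-8196a. In each of the 19 the rotenone libraries did not overlap with any of the 6 vehicle libraries. These 3 comparisons share the rotenone libraries and the vehicles, so their overlap is a description. Of the 19, 10 passed all 3 comparisons without rotenone replicate 2 and 12 without H2O replicate 1. mir-44 and mir-45 lost the pooled call without DMSO replicate 1 (-0.12 for both), DMSO replicate 2 (-0.14 for both) or rotenone replicate 3 (-0.14 and -0.13), and when rare hairpins were not filtered out (-0.11 for both).

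**Figure D1:**
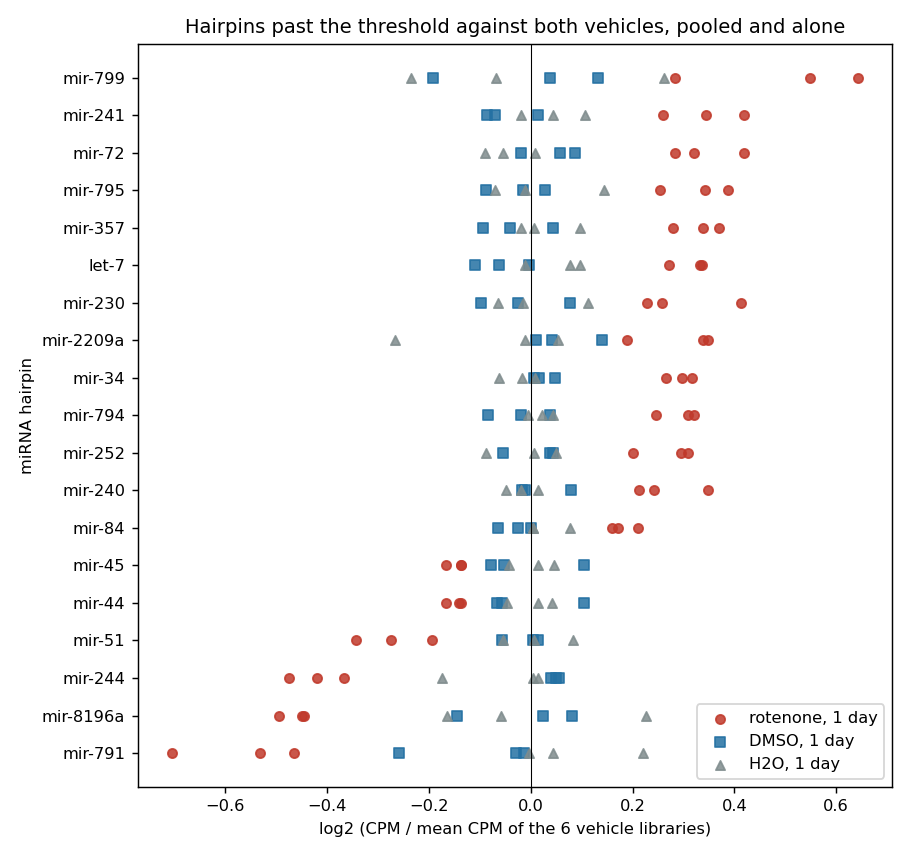
Each row is 1 of the 19 hairpins that passed against both vehicles pooled and against each alone. Points are single libraries (red circles rotenone, blue squares DMSO, grey triangles H2O) and the horizontal axis is the log2 ratio of CPM to the mean of the 6 vehicle libraries. In every row the 3 rotenone points lie to 1 side of all 6 vehicle points, closest to them for mir-799 and mir-2209a.

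Of the families listed, the let-7 family had the most members changed, all of them upward. let-7 itself, which drives the transition from larva to adult, was at 5252, 5479 and 5498 CPM in the rotenone libraries, against 4171, 4346 and 4035 CPM in the DMSO libraries and 4322, 4592 and 4656 CPM in the H2O libraries. The lowest rotenone library lay above the highest vehicle library, and let-7 rose 1.24-fold (log2 difference 0.31 ± 0.048, adjusted p = 6.2e-06), with 0.37 against DMSO and 0.26 against H2O. mir-241, mir-48 and mir-84 act earlier, in the transition between the second and the third larval stage. mir-241 was at 1052, 1000.3 and 942 CPM in the rotenone libraries, against 796, 742 and 750.2 CPM in the DMSO libraries and 777, 848 and 812 CPM in the H2O libraries. It rose 1.27-fold (log2 difference 0.34 ± 0.077, adjusted p = 0.00137), again without overlap. mir-84 was at 3635, 3662 and 3761 CPM in the rotenone libraries, against 3254, 3111 and 3195 CPM in the DMSO libraries and 3263, 3260.4 and 3430.0 CPM in the H2O libraries and rose 1.13-fold (log2 difference 0.18 ± 0.039, adjusted p = 0.000839). Its spread within a group was small, and its rise of 0.18 did not pass with total counts (0.099, adjusted p = 0.0938).

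mir-48, the most abundant member, rose 1.11-fold against the pool (log2 difference 0.15 ± 0.047, adjusted p = 0.0207), and passed against H2O (0.17) and not against DMSO (0.12, adjusted p = 0.132). Its call was lost with size factors (0.12), with total counts (0.065) and without H2O replicate 1 (0.12), rotenone replicate 2 (0.13) or rotenone replicate 3 (0.15). The remaining members belong to the family by their seed and are less studied. mir-795 rose 1.26-fold (log2 difference 0.33 ± 0.064, adjusted p = 0.000264) and mir-794 1.22-fold (log2 difference 0.29 ± 0.059, adjusted p = 0.000468). mir-794 was at 252, 254 and 241 CPM in the rotenone libraries, against 201, 192 and 209 CPM in the DMSO libraries and 207, 203 and 209.9 CPM in the H2O libraries and did not overlap. mir-793 rose 1.21-fold against the pool (log2 difference 0.28 ± 0.073, adjusted p = 0.00532) and stood at 0.24 against H2O alone (adjusted p = 0.0595). mir-1821, at 9.6 to 18.9 CPM, had overlapping groups and did not pass (log2 difference 0.37 ± 0.17, adjusted p = 0.133). mir-265 was below the limit on counts.

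**Figure D2:**
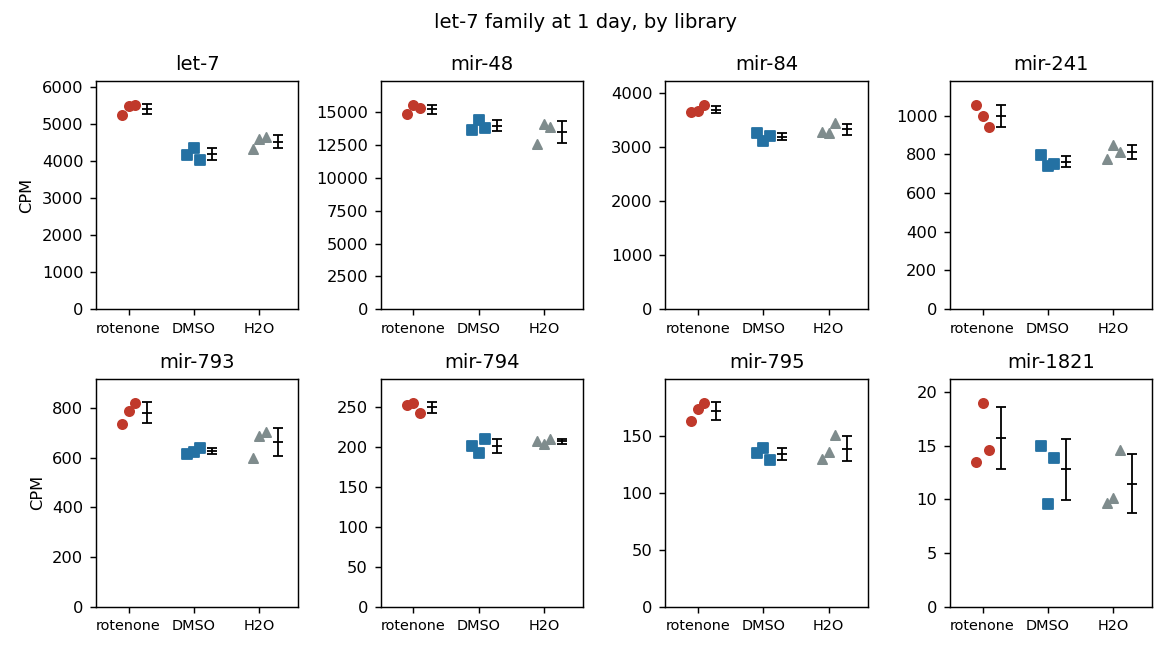
CPM of the 8 tested members of the let-7 family in each library of 1 day, with rotenone left, DMSO in the middle and H2O right. Symbols are libraries, and the bar beside each group is its mean ± SD (n = 3). The rotenone libraries lie above all vehicle libraries for each member except mir-1821.

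In all, 7 of the 8 tested members rose and 0 fell, against 11.4% and 6.74% of all hairpins, and the median log2 difference of the 8 was 0.30, beside 0.029 over all 193. With size factors 6 members rose and with total counts 5. With lane as an additive term let-7 alone passed (0.29), and the other 6 stood at 0.15 to 0.25 without passing. The family took 2.6% ± 0.013 of all counts with rotenone, 2.39% ± 0.080 with DMSO and 2.41% ± 0.075 with H2O (SD, n = 3 each). The mir-35 family, a marker of oocytes and embryos, took a smaller share of all counts with rotenone than with either vehicle. It held 10.9% ± 0.31 with rotenone, 12.3% ± 0.56 with DMSO and 11.7% ± 0.51 with H2O. These shares, which are not TMM-scaled, narrowly did not overlap (10.5 to 11.1% with rotenone, 11.2 to 12.8% with a vehicle). In TMM-scaled CPM mir-35 itself did overlap, at 38459 to 40374 with rotenone and 39054.5 to 43594 with a vehicle. Of the family's members only mir-37 and mir-42 did not overlap in CPM. None of its 8 members passed, all 8 had a negative sign, and their log2 differences ran from -0.18 to -0.0057. With total counts 1 member passed as lower. The part of the mir-35 share in the changes of let-7 and the other hairpins was not tested.

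Among the other rises mir-72 had the smallest p of all hairpins and is also among the most abundant. It was at 78786, 80908 and 86584 CPM in the rotenone libraries, against 67435, 63954 and 68818 CPM in the DMSO libraries and 60883, 62392 and 65139 CPM in the H2O libraries, and rose 1.27-fold (log2 difference 0.34 ± 0.043, adjusted p = 3.26e-07), with 0.30 against DMSO and 0.39 against H2O. The groups did not overlap, and mir-72 alone made up most of the mir-72 family's 8.73% ± 0.33 of all counts with rotenone, against 7.62% ± 0.24 with DMSO and 7.18% ± 0.21 with H2O. mir-73 and mir-74 of the same family did not pass (0.074 ± 0.082 and 0.063 ± 0.055). mir-34, whose mammalian relatives are induced by p53 and which responds to DNA damage in worms, was at 779, 796 and 808 CPM in the rotenone libraries, against 669, 655 and 651 CPM in the DMSO libraries and 641, 620.2 and 652 CPM in the H2O libraries. The rotenone libraries lay close together and above every vehicle library, and mir-34 rose 1.23-fold (log2 difference 0.29 ± 0.044, adjusted p = 6.2e-06).

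mir-799, a rare miRNA, had the largest rise by fold: it was at 26.1, 27.9 and 21.8 CPM in the rotenone libraries, against 18.4, 19.6 and 15.6 CPM in the DMSO libraries and 15.2, 21.4 and 17 CPM in the H2O libraries. H2O replicate 2 came close to the lowest rotenone library, and the rise was 1.42-fold (log2 difference 0.51 ± 0.11, adjusted p = 0.00117). mir-240, encoded beside mir-786, a regulator of the defecation rhythm in the intestine, was at 2997, 3059 and 3293 CPM in the rotenone libraries, against 2556, 2734 and 2565 CPM in the DMSO libraries and 2553, 2500.1 and 2612 CPM in the H2O libraries and rose 1.2-fold (log2 difference 0.27 ± 0.05, adjusted p = 0.00016). mir-357 rose 1.26-fold (log2 difference 0.33 ± 0.08, adjusted p = 0.00245), mir-230 1.23-fold (log2 difference 0.30 ± 0.072, adjusted p = 0.00208), mir-252 1.2-fold (log2 difference 0.27 ± 0.055, adjusted p = 0.000524) and mir-2209a 1.23-fold (log2 difference 0.30 ± 0.07, adjusted p = 0.00194). All 4 passed against each vehicle alone, mir-2209a against DMSO only just (adjusted p = 0.0464).

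Of the falls mir-244 had the smallest p. It was at 1647, 1527 and 1588 CPM in the rotenone libraries, against 2182, 2206 and 2197 CPM in the DMSO libraries and 2144, 1881 and 2128 CPM in the H2O libraries. Among the vehicles H2O replicate 2 was low, yet every rotenone library lay below it, and mir-244 fell to 0.748 of the vehicle level (log2 difference -0.42 ± 0.073, adjusted p = 6.99e-05). mir-791, known from the neurons that sense carbon dioxide, fell to 0.682 (log2 difference -0.55 ± 0.14, adjusted p = 0.0039) and was at 10.8, 9.54 and 11.3 CPM in the rotenone libraries, against 15.4, 15.2 and 13 CPM in the DMSO libraries and 16, 15.5 and 18.1 CPM in the H2O libraries. This was the lowest level among all hairpins called, with 242 counts in the rotenone libraries together, 517 in DMSO and 564 in H2O. The other neuronal markers tested did not pass: lsy-6, which sets the asymmetry of the ASE taste neurons, stood at -0.14 ± 0.081, mir-790 at 0.035 ± 0.093 and mir-124 at 0.018 ± 0.12.

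mir-8196a was at 18.9, 18.2 and 18.8 CPM in the rotenone libraries, against 27.2, 23.2 and 26.1 CPM in the DMSO libraries and 30.1, 24.7 and 22.9 CPM in the H2O libraries and fell to 0.722 of the vehicle level (log2 difference -0.47 ± 0.11, adjusted p = 0.00142). The rotenone libraries of this rare hairpin lay within 1 CPM of each other. mir-51, of a broadly expressed family with a role in embryonic development, was at 2039, 1927 and 1837 CPM in the rotenone libraries, against 2338, 2242 and 2354 CPM in the DMSO libraries and 2469.5, 2245 and 2341 CPM in the H2O libraries and fell to 0.83 (log2 difference -0.27 ± 0.062, adjusted p = 0.00143). mir-44 fell to 0.903 (log2 difference -0.15 ± 0.043, adjusted p = 0.0118) and mir-45 to 0.903 (log2 difference -0.15 ± 0.043, adjusted p = 0.013). Their hairpins give nearly the same mature miRNA and can share reads, so they may be 1 measurement: they stood at 20762 ± 224 and 20383 ± 240.4 CPM with rotenone (SD, n = 3).

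The other 16 of the 35 did not pass against 1 or both vehicles alone. Against DMSO only, 10 passed: mir-80, mir-81, mir-235 and mir-793 rose, and mir-43, mir-49, mir-54, mir-67, mir-231 and mir-4813 fell. For mir-4813, mir-54, mir-49 and mir-43 the value against H2O was -0.084, -0.071, -0.12 and -0.14, where that against DMSO was -0.31, -0.25, -0.31 and -0.26. All 4 overlapped between rotenone and the 6 vehicle libraries. mir-235, the worm's relative of miR-92, which keeps the progenitor cells of starved larvae at rest, was at 54702, 57686 and 55199.7 CPM in the rotenone libraries, against 43305, 45116 and 39886 CPM in the DMSO libraries and 42951, 55478 and 48234 CPM in the H2O libraries. H2O replicate 2 lay within the rotenone range, and mir-235 rose 0.39 against DMSO and stood at 0.19 against H2O (adjusted p = 0.228). mir-67 (-0.40 against DMSO and -0.23 against H2O) and mir-231 (-0.35 against DMSO and -0.19 against H2O) did not overlap between rotenone and the pooled vehicles.

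Against H2O only, 4 passed. mir-48, mir-245 and mir-248 rose and mir-355 fell, with values against DMSO of 0.12, 0.17, 0.17 and -0.18. mir-58a and mir-359 rose against the pool and passed against neither vehicle alone. Of the other direction of disagreement, 3 hairpins passed against DMSO and not against the pool, mir-234, mir-784 and mir-785, and 0 passed against H2O and not against the pool. Whether a hairpin's difference from DMSO differs from that from H2O is the comparison of DMSO with H2O, in which none of these passed. Many of these calls were lost when a single library was left out, mostly with little change in the value. mir-43 lost its call without any 1 of DMSO replicates 1 and 3, H2O replicates 1 and 3 and rotenone replicates 1 and 2 (-0.17 to -0.19). mir-58a lost it without DMSO replicate 1 or 2, H2O replicate 1 or 2 or rotenone replicate 2 or 3 (0.13 to 0.19), and mir-359 without DMSO replicate 1 or 3, H2O replicate 2 or rotenone replicate 1 or 2 (0.24 to 0.25). mir-49 lost it without DMSO replicate 2, H2O replicate 1, rotenone replicate 2 or rotenone replicate 3 (-0.16 to -0.23), mir-4813 without DMSO replicate 3, rotenone replicate 1 or rotenone replicate 2 (-0.14 to -0.20), and mir-54 without DMSO replicate 2, H2O replicate 3 or rotenone replicate 1 (-0.13 to -0.14). mir-248 lost it without rotenone replicate 1 or 3 (0.20 and 0.19), mir-235 (0.27) and mir-81 (0.16) without rotenone replicate 2, and mir-80 without rotenone replicate 3 (0.15). The remaining 22 of the 35 lost no call when any 1 library was left out.

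**Figure D3:**
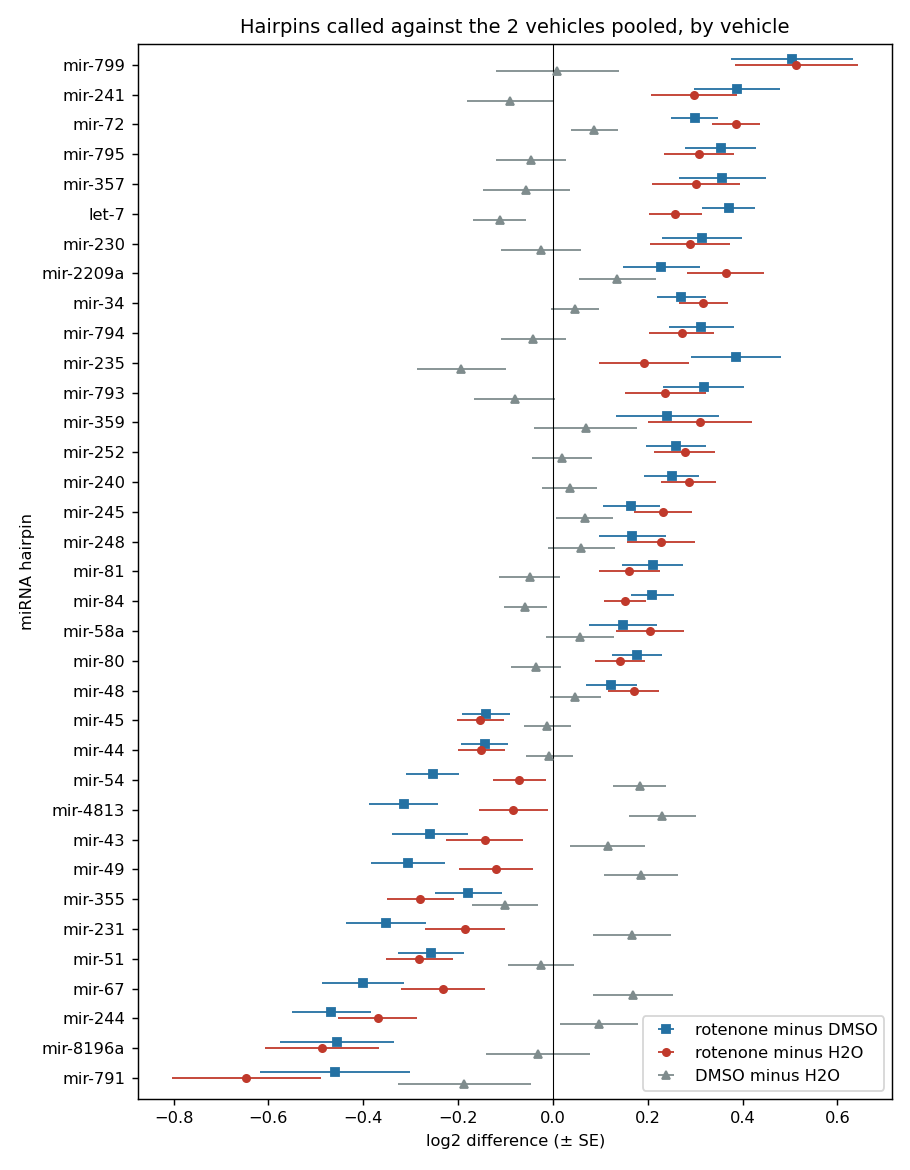
Rows are the 35 hairpins called against both vehicles pooled, ordered by that difference. Blue squares are rotenone minus DMSO, red circles rotenone minus H2O and grey triangles DMSO minus H2O, as log2 differences ± SE. Squares and circles lie on the same side of 0 in every row, and they lie furthest apart where the grey triangles leave 0, as for mir-4813, mir-54, mir-49 and mir-235.

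In the other families fewer members passed, with medians closer to 0. Against these counts stand the 11.4% of all hairpins that passed as higher and the 6.74% that passed as lower. The mir-58 family, related to bantam of the fly, took 30.5% ± 0.53 of all counts with rotenone, 29.6% ± 1.3 with DMSO and 29.4% ± 0.17 with H2O. Of its 5 tested members 3 rose, mir-58a (0.18), mir-80 (0.16) and mir-81 (0.19), with a family median of 0.17. With total counts 0 of them passed and with size factors 1. Both mir-51 and mir-54 fell among the 6 members of the mir-51 family, whose median was -0.12. In the mir-44 family 2 of 4 fell (median -0.13), and in the mir-2 family 1 of 4, mir-43 (median -0.16). With size factors or total counts it was 3 and 2. In the mir-228 family mir-791 was the 1 of 3 that passed. In the lin-4 family, whose founder lin-4 times the first larval transitions, 0 of 2 passed (0.079 ± 0.084 for lin-4 and -0.037 ± 0.056 for mir-237). Medians of these last 2 families were 0.035 and 0.021. None passed among the 5 of the mir-64 family, the 3 of the mir-238 family or the 3 mirtrons tested, miRNAs released from short introns by splicing, and their medians were -0.035, 0.028 and -0.16. With size factors or total counts 1 mirtron passed as lower.

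Of the 8 miRNAs tied to lifespan 2 rose and 0 fell, mir-34 and mir-80, and the same 2 were the ones that rose among the 10 tied to stress, since the lists share members. Over all hairpins 11.4% rose. Their medians were 0.072 and 0.034, close to the 0.029 of all hairpins. mir-71, which promotes long life, stood at 0.065 ± 0.055, mir-246 at 0.03 ± 0.045, mir-238 at 0.078 ± 0.051, mir-239a at -0.056 ± 0.054 and mir-239b at 0.028 ± 0.083. With total counts the medians of both lists turned negative (-0.010 and -0.048), as did those of the lin-4, mir-72, mir-228 and mir-238 families. That of the lin-4 family was negative with size factors as well.

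The hairpins called were mostly abundant ones. Of the 96 hairpins above the median level of 78.3 CPM 31 were called (32.3%), and of the 97 at or below it 4 (4.12%). The median SE was 0.061 in the upper set and 0.213 in the lower, so that changes of the size seen here were not detectable for most rare hairpins at this depth. By the Ensembl annotation of WBcel235, which was used only for neighbourhood, the tested hairpins form 23 groups of neighbours on the same strand with at most 10000 bases between them. Calls fell in 11 of these groups, and 4 held more than 1, where 18.1% of all 193 hairpins were called. Whether calls lie together more often than other hairpins was not tested. Both members rose in the pairs of mir-794 with mir-795 and of mir-48 with mir-241, and mir-43 and mir-44 fell together while their neighbour mir-42 stood at -0.18 ± 0.082. mir-230 and mir-791 are neighbours too, and moved in opposite directions (0.30 and -0.55). The mir-51 and mir-53 pair had 1 call (-0.27 and -0.035).

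The called hairpins shared a pattern in time that their choice did not use. In worms given DMSO, miRNA levels shifted strongly between 6 hours and 2 days: 36.8% of the 193 hairpins were higher at 2 days and 34.2% lower. Of the 22 hairpins that rose with rotenone at 1 day, 18 were lower in DMSO at 2 days than at 6 hours (17 past the threshold), with a median log2 difference of -0.82. Of the 13 that fell with rotenone, 13 were higher in DMSO at 2 days (12 past the threshold), with a median of 1.09. Over all 193 hairpins 129 had opposite signs in the 2 differences (66.8%), and over the 35 called 31 (88.6%). The correlation across hairpins was -0.36 (Pearson) and -0.39 (Spearman) over all 193, and -0.75 and -0.79 over the 35. The 35 were called by the rotenone difference, which leaves out small and uncertain values. The closer relation among them therefore follows in part from the choice. These differences share no library, hairpins are not independent replicates, and no test was made. The 4 exceptions were mir-72 (0.029), mir-80 (0.05), mir-248 (0.12) and mir-2209a (0.39), all higher with rotenone.

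For let-7 the DMSO means were 9845 ± 261 CPM at 6 hours, 4184 ± 156 at 1 day and 2366 ± 48.7 at 2 days, and rotenone at 1 day stood at 5409.9 ± 137 CPM (SD, n = 3 each), above its vehicle and below the level of 6 hours. For mir-43 they were 20.2 ± 2.53, 133 ± 9.9 and 156 ± 4.92 CPM, with rotenone at 1 day at 111 ± 7.36, below its vehicle and above the level of 6 hours. For mir-4813 they were 51.7 ± 2.57, 208 ± 15 and 226 ± 5.08 CPM, with rotenone at 1 day at 167 ± 12.1. The H2O libraries of 1 day lay nearer to rotenone, at 180, 173 and 177 CPM for mir-4813 and 125, 115 and 128 CPM for mir-43. Neither of these hairpins passed against H2O alone. mir-72 did not follow such a course: DMSO stood at 71086 ± 159, 66736 ± 2506 and 72507 ± 3954 CPM, all below rotenone at 1 day (82093 ± 4032). mir-244 with rotenone at 1 day likewise lay below DMSO at each of the 3 times (1587 ± 60.1 CPM with rotenone at 1 day, against 2755 ± 171, 2195 ± 12.2 and 3304 ± 606 with DMSO).

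DMSO at 6 hours was on lane 8, as was rotenone at 1 day, so a lane is shared between the differences. With DMSO at 2 days set against rotenone at 6 hours instead, both on lane 1, a choice made after the data were seen, 31 of the 35 again had opposite signs. Of the 22 that rose, 19 were then lower at 2 days, and of the 13 that fell, 12 were higher. The correlation was -0.29 (Pearson) and -0.38 (Spearman) over all 193 and -0.70 and -0.73 over the 35.

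**Figure D4:**
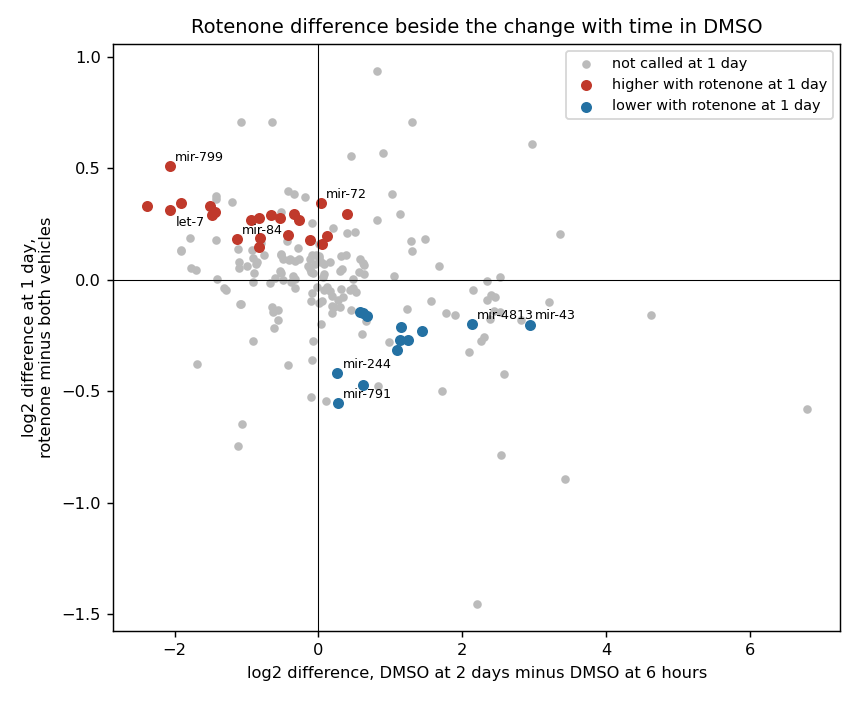
Each point is 1 of the 193 tested hairpins. The horizontal axis is the log2 difference of DMSO at 2 days minus DMSO at 6 hours, and the vertical axis that of rotenone minus both vehicles at 1 day. Red points (22, higher with rotenone) lie mostly left of 0 and blue points (13, lower with rotenone) all right of it, while grey points, not called, spread over both signs of both axes.

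The 35 hairpins were followed at the other times, in libraries other than those of 1 day, some of them on the same lanes. The 3-day comparison sets lane 8 against lane 3, the lanes of rotenone and H2O at 1 day. At 2 days, with rotenone on lane 2 and DMSO on lane 1, 32 of the 35 had the sign of 1 day and 24 passed in that direction, where 42.5% of all hairpins passed and 131 of 193 had the sign of 1 day. The 19 that rose at 1 day and were still higher at 2 days took in let-7 (0.49 ± 0.056) and mir-241 (0.40 ± 0.091), and all 13 that fell were still lower, mir-244 the most (-0.93 ± 0.083). mir-230, mir-245 and mir-793 were the exceptions, at -0.19, -0.20 and -0.25, and the falls of mir-245 and mir-793 passed. At 3 days, with rotenone on lane 8 and DMSO on lane 3, 12.4% of all hairpins passed and 27 of the 35 had the sign of 1 day, 21 of the 22 that rose and 6 of the 13 that fell, beside 103 of all 193. mir-72 (0.34), mir-34 (0.16), mir-794 (0.23) and mir-2209a (0.31) were higher and mir-244 (-0.58), mir-791 (-0.60) and mir-355 (-0.22) lower past the threshold, while mir-43 (0.35) and mir-4813 (0.25) passed in the opposite direction.

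At 6 hours rotenone was on lane 1 and DMSO on lane 8, the lane of rotenone at 1 day. Lane 8 thus stands on the opposite side of the comparison, and lane and time cannot be told apart here. At 6 hours 11.9% of all hairpins passed, and 11 of the 35 had the sign of 1 day, beside 81 of all 193. The 11 were 2 of the 22 that rose and 9 of the 13 that fell. mir-49, mir-51, mir-54 and mir-355 passed as lower at 6 hours as at 1 day, while mir-72, mir-245 and mir-2209a, higher at 1 day, were lower at 6 hours. At 5 days against both vehicles, where 1.04% passed, 10 of the 35 had the sign of 1 day, beside 77 of all 193. mir-34 and mir-239a are the 2 hairpins that passed at 5 days, and there mir-34 was lower with rotenone (1517 ± 94.3 CPM, against 1802 ± 90.9 with DMSO and 1771 ± 56.5 with H2O; log2 difference -0.24 ± 0.045, adjusted p = 0.00118).

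**Figure D5:**
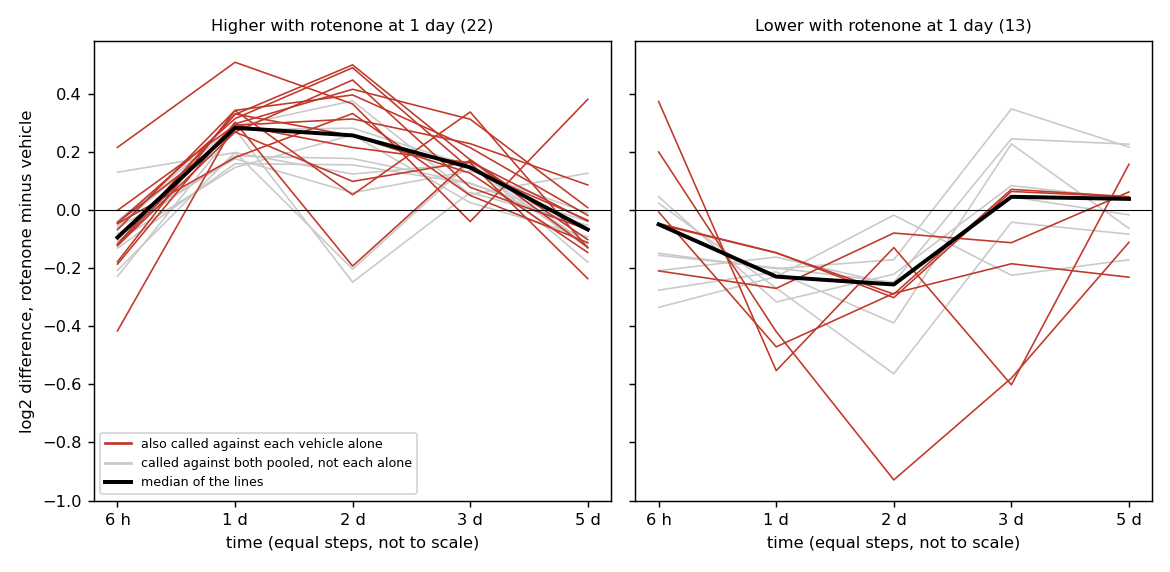
Log2 difference of rotenone minus vehicle at 6 hours and 1, 2, 3 and 5 days for the 22 hairpins that rose (left) and the 13 that fell (right) at 1 day. The vehicle is DMSO and H2O pooled at 1 and 5 days and DMSO at the other times. Red lines also passed against each vehicle alone at 1 day, grey lines did not, and the black line is the median of all lines of the panel. The medians at 1 and 2 days lie on the same side of 0, and those at 6 hours and 5 days lie within 0.1 of 0.

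Tests of the difference between times gave 31 hairpins (16.1%) whose rotenone effect against DMSO at 1 day differed from that at 6 hours, 27 of them higher at 1 day. Rotenone at 1 day and DMSO at 6 hours, both on lane 8, enter this difference with the same sign. Lane and a change of effect therefore cannot be told apart in it. The 5 smallest p-values were those of mir-72, mir-244, mir-2209a, mir-34 and let-7. For mir-72 the effect was 0.30 at 1 day and -0.18 at 6 hours (difference 0.48 ± 0.071, adjusted p = 1.46e-05). mir-2209a was higher with rotenone at 1 day (0.23) and lower at 6 hours (-0.42), and both passed. The count rests on the scaling and on 1 library: with total counts 5 were higher and 13 lower, where the median of all hairpins moved to -0.064 against 0.098 with TMM, and without replicate 2 of DMSO at 1 day 3 were higher and 5 lower, with let-7 (0.33, adjusted p = 0.0671) and mir-34 (0.27, adjusted p = 0.0943) no longer past the threshold. mir-34 did not pass with total counts either (0.23, adjusted p = 0.0600).

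Between 1 and 2 days 26 hairpins differed (13.5%), 20 higher and 6 lower at 1 day. DMSO at 1 day and rotenone at 2 days, both on lane 2, enter this difference with the same sign. Lane and a change of effect cannot be told apart here either. The number lower was 0 without replicate 2 of DMSO at 1 day, 1 without replicate 1 of rotenone at 1 day, 0 with no filter and 12 in DESeq2, while 16 to 21 were higher under every alternative run. No alternative left out a single library of 2 days, so how far these counts rest on 1 such library was not tested. The 5 smallest p-values were those of mir-788 (difference 1.10 ± 0.19, adjusted p = 0.000149), lsy-6 (0.60 ± 0.13), mir-1022 (0.58 ± 0.12), mir-793 (0.57 ± 0.12) and mir-86 (0.38 ± 0.077). Against DMSO at 1 day mir-788 stood at -0.19 ± 0.14 and lsy-6 at -0.11 ± 0.092, and neither passed there. At 2 days mir-788 averaged 31.8 ± 3.31 CPM with rotenone, against 77.8 ± 19.5 with DMSO, where at 1 day it averaged 25.9 ± 1.69 and 29.5 ± 4.42 (SD, n = 3 each). Between 1 and 5 days, both against the 2 vehicles pooled, 31 differed (16.1%), 22 higher and 9 lower at 1 day. H2O at 1 day and rotenone at 5 days, both on lane 3, enter that difference with the same sign, with the same limit. mir-34 led (0.53 ± 0.063, adjusted p = 8.07e-08), followed by mir-72 (0.47 ± 0.062), mir-84, mir-795 and let-7, all higher at 1 day. With total counts 8 were higher and 14 lower (median of all hairpins -0.038, against 0.071 with TMM), with size factors 10 and 13, and without rotenone replicate 2 the count was 15.

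As lane moves with treatment at 1 day, and DMSO minus H2O is also a difference between lanes 2 and 3, a fit was made with lane in it. This fit, with time, treatment and lane as additive terms and a separate term for rotenone at 1 day, assumes 1 rotenone effect for the other 4 times. It called 18 hairpins, 3 higher and 15 lower, of which 12 are among the 35. All but 1 of the 35 kept their sign in it, mir-245 being at -0.0073. let-7 (0.29), mir-240 (0.29) and mir-799 (0.67) were the 3 rises that passed, and mir-43, mir-44, mir-45, mir-49, mir-51, mir-54, mir-67, mir-4813 and mir-8196a passed as falls. mir-72 (0.082, adjusted p = 0.469), mir-34 (0.18, adjusted p = 0.136), mir-244 (-0.17, adjusted p = 0.51) and mir-791 (-0.080, adjusted p = 0.861) did not pass there. let-7, mir-51, mir-67, mir-240, mir-799 and mir-8196a passed in that fit and under the 17 other alternatives run on the pooled comparison.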

How the data were processed

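Per the labels' protocols, libraries of small RNA were made with a TruSeq kit. The deposited table holds a raw count of reads for each of 250 miRNA hairpins in each of 36 libraries, made by the authors. BWA 0.7.12-r1039, SAMtools 1.3.1-9, Trimmomatic 0.36 and bcl2fastq 1.8.4 were used, per the submitters' processing notes. The sources used here give neither the build nor the annotation of the hairpins, nor how reads matching several hairpins were counted. Hairpins of near-identical sequence may therefore share reads, and coordinates are left out. Of the 241 hairpins with a count, 193 passed filterByExpr (minimum count 10), and the 57 of the table that did not pass hold 0.000732% of all counts.

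The 36 libraries were fitted with 1 mean for each of the 12 groups in edgeR 4.0.16 (R 4.3.3), with TMM scaling. The fit had 24 residual degrees of freedom, 12.6 prior ones and a biological coefficient of variation of 0.0678. Rotenone at 1 day was set against the mean of DMSO and H2O, with a weight of 0.5 each, and against either alone. No pair of libraries of a group at 1 day was alike within sampling noise (chi-square per degree of freedom 54.0 to 237). The procedure was run on simulated counts drawn with its own fitted spread, with independent libraries and no lane difference at 1 day. That run cannot speak to lane or to technical replicates. Groups were taken from the labels of treatment and time, and lanes from the sample descriptions. The alternatives were scaling by total counts or by DESeq2 size factors, DESeq2 1.42.0 as the test, no filter on counts, a block for the replicate number, fewer libraries in the fit, the vehicles as 1 group, lane as a term and each library of 1 day left out in turn. Neighbouring hairpins were read from the Ensembl annotation of WBcel235, in which 191 of the 193 names matched.

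The comparison, its lists and its tests were chosen with earlier results of these data known. Named are the hairpins that passed in the same direction against both vehicles pooled and each alone, the 8 largest rises and 8 largest falls among the others that passed against the pool, list members that passed, the markers mir-1, mir-60 and mir-228, and the 5 smallest p-values of each difference between times. Hairpins named outside this rule were chosen after their values were seen.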

Additional observations from a re-analysis of the deposited data

Results flagged for a closer look

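Among the 6 vehicle libraries of 1 day, 1 library lay far from the other 5 for 4 of the 38 hairpins examined, by the gap to its nearest neighbour relative to the whole range (Dixon's test). Chance gives this in about 1 of 20 cases. For mir-244 it was H2O replicate 2, at 1881 CPM, the low one. For mir-248 it was DMSO replicate 3, at 676 CPM. For mir-58a it was again DMSO replicate 3, at 49406 CPM, and for mir-80 DMSO replicate 2, at 41956 CPM.

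Differences in the rotenone effect between 1 day and another time passed their own test for 31 hairpins against 6 hours, 26 against 2 days and 31 against 5 days. For 1 day minus 6 hours these include mir-72 (0.48), mir-2209a (0.64), let-7 (0.41), mir-34 (0.39) and mir-244 (-0.67), as log2 differences. For 1 day minus 2 days they include mir-788 (1.10), lsy-6 (0.60), mir-1022 (0.58), mir-793 (0.57) and mir-86 (0.38). For 1 day minus 5 days they include mir-34 (0.53), mir-795 (0.48), mir-72 (0.47), let-7 (0.35) and mir-84 (0.29). Lanes also varied among the groups compared across times, and their part was not tested. In 1 day minus 6 hours, rotenone at 1 day and DMSO at 6 hours were both on lane 8 and enter with the same sign. DMSO at 1 day and rotenone at 2 days, both on lane 2, also enter their difference with the same sign. So do H2O at 1 day and rotenone at 5 days, both on lane 3. Lane and a change of the rotenone effect therefore cannot be told apart in any of these differences.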

How the results depend on the processing

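The count of 35 against both vehicles lay between 27 and 39 under all alternatives run except lane as an additive term, with 18, where mir-245 stood at -0.0073. Of the 35 calls 19 passed under each of the 17 other alternatives, 13 higher and 6 lower. With each library of 1 day left out in turn the counts were 27 to 34 against both vehicles, 22 to 32 against DMSO, 13 to 24 against H2O (13 without H2O replicate 1 or rotenone replicate 2), 10 to 18 held, 40 to 59 without overlap, 8 to 31 for 1 day minus 6 hours, 19 to 25 for 1 day minus 2 days and 15 to 28 for 1 day minus 5 days. DMSO against H2O gave 0 each time and 1 in DESeq2. For 1 day minus 6 hours the count was 19 with size factors and 18 with total counts, with no filter or with only the libraries of these times. For 1 day minus 5 days it was 20 with no filter. The cause of these shifts was not tested. Where leaving out a library leaves 2 in its group, the fit assumes that they vary like the other groups. Libraries of the other times were not left out in turn.

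Replicate numbers are shared between groups in the labels. Same-numbered libraries of 1 day deviated from their group means with correlations of -0.17 to 0.15, and different-numbered ones with -0.21 to 0.13. With 3 libraries a group these values cannot settle whether a number marks a shared source, so the main fit did not pair them. With the replicate number as a block, 36 passed against both vehicles, 33 against DMSO, 27 against H2O, 21 held, and 32, 27 and 34 differed from 6 hours, 2 days and 5 days. Depth limits the rare hairpins, whose median SE was 0.213 at or below the median level.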

Other observations

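Outside the 35 called hairpins, 12 had all 3 rotenone libraries on 1 side of the 6 vehicle libraries without passing the test, 7 above and 5 below. These were chosen after their values were seen. The abundant ones above were mir-90 (37778 CPM on average over the 9 libraries, log2 difference 0.14 ± 0.059), mir-87 (431 CPM, 0.11 ± 0.058) and mir-5592-1 (429 CPM, 0.11 ± 0.052), and mir-354, mir-784, mir-8195 and mir-8208 were rare, at 0.899 to 9.64 CPM. Those below were mir-37 (19824 CPM, -0.089 ± 0.10) and mir-42 (239 CPM, -0.18 ± 0.082) of the mir-35 family, mir-2 (935 CPM, -0.15 ± 0.061), whose family also holds mir-43, mir-789-1 (128 CPM, -0.22 ± 0.082) and the mirtron mir-62 (38.5 CPM, -0.24 ± 0.095).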
